A study of Mus musculus with 4 samples.

Results

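A set of 10 germ line genes was examined in differentiating mouse erythroid cultures: the tumour rejection antigen gene Trap1a, the X-linked gene Xlr, the Tudor domain genes Rnf17, Tdrd1 and Tdrd9, Mael, Ddx4, Tex15, Hormad1 and Brdt. They were chosen by the measured difference between the MEL and ES-EP arrays, as germ line genes with high values in MEL cells, together with relatives that might stay silent. Their own values are therefore given as a description without a test. Members are features of the array annotated to exactly 1 of these genes. All 10 were found, through 11 of 28944 non-control features, and they stand among 19938 genes with a feature of their own. Hormad1 had 2 features and the other 9 genes had 1 each.

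The array, a GeneChip Mouse Gene 1.0 ST from Affymetrix, carries probes along each transcript and was used with 1 colour on 2 groups of 2 cultures lettered A and B. MEL cells, an established mouse erythroleukemia line, were kept in serum medium with puromycin and given 17b-estradiol over 48 hours. The ES-EP cultures are erythroid progenitors grown out of embryonic stem cells, which had been expanded with Epogen, hIGF-1, dexamethasone and SCF and were moved for 24 hours to Epogen, insulin and mifepristone. Both groups are labelled as differentiating, and line, medium, inducer and hours differed together, so their parts in any difference cannot be told apart. The labels do not say whether the MEL cultures came from 1 clone. The cultures are called duplicates, and the p-values given for other genes measure only the spread between them.

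Genes of this kind are active in germ cells and are held silent in most body cells, in large part by methylation of CpG-rich promoters and by repressor complexes that bind E2F sites and E boxes. Tudor domain proteins, the helicase DDX4 and MAEL work in germ granules, where PIWI proteins and their small guide RNAs (piRNAs) silence transposons. HORMAD1 and TEX15 act on meiotic chromosomes, and BRDT reads acetylated histones during sperm formation. Tumours can switch such genes on, and TRAP1A is a classical antigen of mouse tumours that cytotoxic T cells recognise.

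The members formed a bright and a dim group. Trap1a, Rnf17, Xlr, Tdrd9 and Brdt were 4.72 to 36.0-fold brighter on the MEL arrays than on the ES-EP arrays, while Tdrd1, Ddx4, Mael and Hormad1 lay within 2-fold and Tex15 was 2.62-fold lower in MEL. The name of the set, which speaks of genes raised in MEL cells, therefore holds for 5 of the 10. Over all genes 7.38% were at least 2-fold higher in MEL and 4.93% at least 2-fold lower. The median difference of the 10 members, 1.12 on the log2 scale, fell between the bright and the dim group and lay near no member. Over all genes the median was -0.14, but the members were chosen on this difference, so setting one against the other carries no weight. In the 5 higher genes the values on the log2 RMA scale (robust multi-array average) ran from 7.45 to 9.27 on the MEL arrays and from 3.94 to 5.39 on the ES-EP arrays. In the other 5 they ran from 3.34 to 5.06 on all 4 arrays, where 5.46% to 33.5% of the features of an array were dimmer. Without detection calls it is not known which of these low values are background, and a fold against a value near the floor understates the change. In extracts of whole cultures, a high value in a few cells and a lower value in all cells cannot be told apart.

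**Figure D1:**
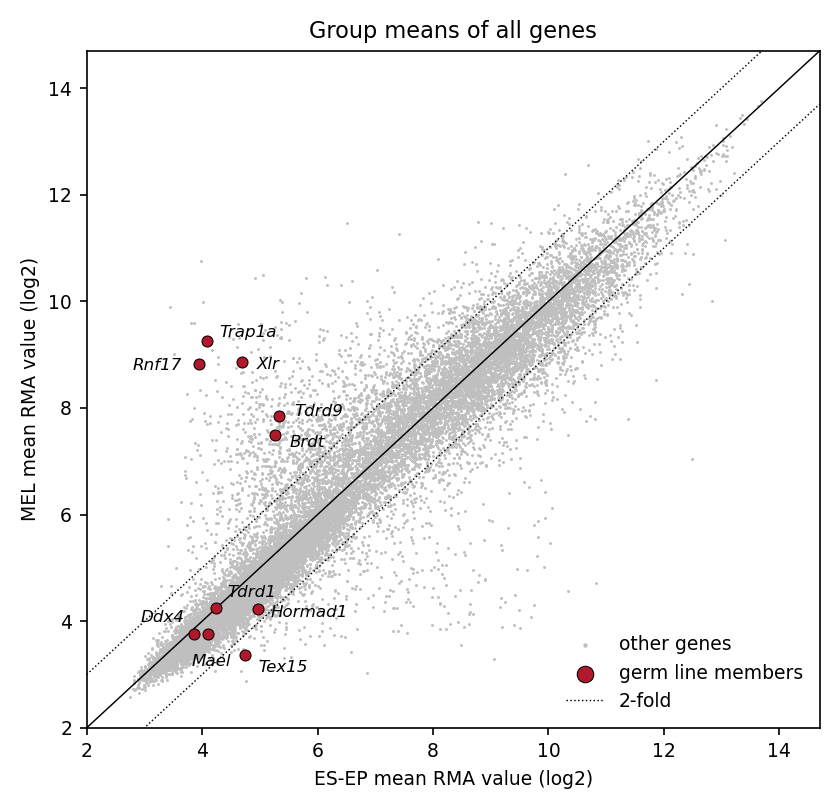
Each grey point is 1 of 19938 genes, with its mean log2 RMA value in 2 ES-EP cultures (x axis) and 2 MEL cultures (y axis). The solid line marks equal values and the dotted lines a 2-fold difference; 5 germ line genes (red) lie far above the upper dotted line, while Tex15 lies below the lower one and the others between the lines.

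The stretches upstream of the transcription starts are shown because promoter sequence took no part in choosing the genes. RefSeq's table for GRCm38.p6 had an entry for 8 of the 10 genes, with Rnf17 and Tex15 the others. The 250 bases before the start of 4 bright genes and 2 dim ones read, 5′ to 3′ on the strand of the gene, as follows, with capitals marking the letters TCCCGC (the core of an E2F site, GCGGGA on the other strand) and CACGTG (an E box, the same on both strands).
Trap1a, chrX:139333433-139333682, plus strand: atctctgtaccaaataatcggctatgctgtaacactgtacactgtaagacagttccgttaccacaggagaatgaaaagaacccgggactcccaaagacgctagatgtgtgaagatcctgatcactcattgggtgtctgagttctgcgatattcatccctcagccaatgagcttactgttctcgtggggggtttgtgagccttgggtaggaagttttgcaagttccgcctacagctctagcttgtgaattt
Xlr, chrX:53797707-53797956, minus strand: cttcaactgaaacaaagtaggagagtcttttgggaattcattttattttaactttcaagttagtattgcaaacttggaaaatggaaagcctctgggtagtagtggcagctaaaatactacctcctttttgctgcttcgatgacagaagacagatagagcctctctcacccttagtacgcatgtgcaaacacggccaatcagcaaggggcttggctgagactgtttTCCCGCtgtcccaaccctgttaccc
Tdrd9, chr12:111971309-111971558, plus strand: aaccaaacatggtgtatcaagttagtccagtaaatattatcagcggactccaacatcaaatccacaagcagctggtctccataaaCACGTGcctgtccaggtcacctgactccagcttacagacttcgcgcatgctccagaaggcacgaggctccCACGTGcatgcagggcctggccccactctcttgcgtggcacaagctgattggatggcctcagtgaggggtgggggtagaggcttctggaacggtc
Brdt, chr5:107330944-107331193, plus strand: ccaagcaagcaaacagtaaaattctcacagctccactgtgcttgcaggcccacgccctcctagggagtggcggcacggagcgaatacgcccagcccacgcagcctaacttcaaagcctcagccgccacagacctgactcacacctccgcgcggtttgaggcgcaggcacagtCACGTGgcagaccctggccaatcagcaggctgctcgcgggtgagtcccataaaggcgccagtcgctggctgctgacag
Ddx4, chr13:112652311-112652560, minus strand: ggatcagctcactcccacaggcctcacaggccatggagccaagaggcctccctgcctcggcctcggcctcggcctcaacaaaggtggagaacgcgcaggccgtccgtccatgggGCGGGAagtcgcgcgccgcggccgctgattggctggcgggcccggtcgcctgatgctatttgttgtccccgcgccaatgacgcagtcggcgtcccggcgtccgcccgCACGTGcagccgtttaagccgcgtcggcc
Hormad1, chr3:95559427-95559676, plus strand: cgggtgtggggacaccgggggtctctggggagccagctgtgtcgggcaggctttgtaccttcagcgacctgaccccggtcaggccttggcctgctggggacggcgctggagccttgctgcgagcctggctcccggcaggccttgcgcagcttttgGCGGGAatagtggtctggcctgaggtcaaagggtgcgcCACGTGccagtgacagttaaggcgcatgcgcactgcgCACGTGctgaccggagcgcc

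The E box letters were common among these genes. In windows of 300 bases, from 250 before to 50 after the start, CACGTG was found in 6 of the 8 genes with an entry (Tdrd9, Brdt, Tdrd1, Mael, Ddx4 and Hormad1), against 8.09% of 27025 genes in the table and 30.0%, 23.3% and 29.4% of the genes with an entry on lists of other piRNA, meiotic chromosome and germ cell regulator genes. Tdrd9 and Hormad1 held it 2 times. In Ddx4 its first base lay 29 bases before the start, in Brdt 78 bases, and in Hormad1 57 and 20 bases. Trap1a and Xlr, both X-linked, did not hold these letters in the window. TCCCGC occurred in 4 of the 8 genes (Xlr, Mael, Ddx4 and Hormad1), against 22.0% of genes in the table, and both motifs occurred in Mael, Ddx4 and Hormad1, against 2.65%. On the same lists TCCCGC was found in 35.0%, 63.3% and 41.2% of the genes and both motifs in 5.00%, 20.0% and 17.6%, so TCCCGC was at least as frequent in meiotic chromosome genes as in the members. Among the bright members with an entry, none held both, and Brdt and the dim Tdrd1 were alike in holding 1 E box and no TCCCGC. The motifs do not overlap each other in the printed stretches. These matches are letters in a window, and binding was not measured.

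The promoters varied in CpG content. The ratio of observed to expected CpG, which is low where methylation has worn CpGs away over evolution, was 0.49 for Trap1a, 0.45 for Xlr and 0.43 for Tdrd9, against a median of 0.38 over 32851 windows. It was 0.74 for Brdt, 0.71 for Hormad1, 0.73, 0.81 and 0.22 for the 3 windows of Tdrd1, the last without an E box, 0.78 for Mael and 0.98 for Ddx4, a value above that of 92.8% of the windows. Of the 4 bright members with an entry, 3 were thus below 0.5 and 1 above 0.7, while the 4 dim ones had a window above 0.7 but Tdrd1 also the lowest of all these windows. With 8 genes this is a description and no test was made.

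Trap1a had the largest difference of the set. Its feature 10601988 read 9.24 and 9.27 in MEL cultures A and B and 4.07 and 4.10 in ES-EP cultures A and B (all log2 RMA values). The MEL values were brighter than 85.3% and 84.7% of the features of their arrays, and the ES-EP values brighter than 14.4% and 15.1%. The groups lay 5.14 apart at their nearest points, with an SD of 0.02 within each group (n = 2). The difference of 5.17, or 36.0-fold, was the 9th highest among all genes.

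Xlr, the X-linked lymphocyte regulated gene, encodes a nuclear protein related to the synaptonemal complex protein SYCP3. Its feature 10604656 read 8.83 and 8.89 in MEL and 4.60 and 4.77 in ES-EP cells, a difference of 4.17 or 18.0-fold. The groups did not come near each other, and the ES-EP duplicates differed more (SD 0.12) than the MEL duplicates (SD 0.04, n = 2 each). Xlr belongs to a family of similar X-linked copies, and hybridisation of their transcripts to its probes was not tested. Features shared by the copies Xlr3, Xlr4 and Xlr5 carry several gene names and were not used here.

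Among the genes of the piRNA pathway, Rnf17 and Tdrd9 were bright in MEL cells and Tdrd1, Mael and Ddx4 were not. Rnf17, a protein with a RING finger and Tudor domains that sits in germ granules, read 8.74 and 8.93 in MEL and 3.96 and 3.94 in ES-EP cells (feature 10415472). Its difference of 4.88 was 29.5-fold and the 13th highest of all genes. Tdrd9, a helicase with a Tudor domain that works with the nuclear PIWI protein MIWI2, read 7.84 and 7.87 in MEL and 5.39 and 5.29 in ES-EP cells (feature 10398759), a difference of 2.52 or 5.72-fold. In both genes every MEL value lay above every ES-EP value, by at least 4.77 for Rnf17 and 2.46 for Tdrd9.

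The dim members of this pathway differed little between the groups. Tdrd1, a scaffold of germ granules that binds the PIWI protein MILI, read 4.19 and 4.32 in MEL and 4.25 and 4.25 in ES-EP cells, and here the groups overlapped. Ddx4, the mouse Vasa helicase and a standard marker of germ cells, read 3.73 and 3.78 in MEL and 3.89 and 3.83 in ES-EP cells, a difference of -0.11. The sign for these genes depended on the scaling, since after quantile normalization the difference was 0.23 for Tdrd1 and 0.08 for Ddx4. Mael, which is needed for transposon silencing in the male germ line, read 3.78 and 3.73 in MEL and 4.12 and 4.07 in ES-EP cells. Its MEL values were the lower ones by 0.34 on average, or 0.15 after quantile normalization, and the median of all genes was itself at -0.14.

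Of the meiotic members neither was raised. Tex15, which is required for meiotic recombination and for DNA methylation directed by MIWI2, read 3.38 and 3.34 in MEL and 4.69 and 4.81 in ES-EP cells (feature 10571252). It was the only member at least 2-fold lower in MEL, with a difference of -1.39 and a gap of 1.31 between the groups. Hormad1, a protein of the meiotic chromosome axis that monitors synapsis, read 4.24 and 4.23 in MEL and 4.86 and 5.06 in ES-EP cells on its brighter feature, a difference of -0.72. Its second feature read 2.94 and 2.96 in MEL and 3.09 and 3.09 in ES-EP cells, a difference of -0.14, like the median of all genes at -0.14. Only 1.07% to 1.35% of the features of an array were dimmer, so this feature lies at the floor and does not back the difference of the brighter one.

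Brdt, the testis member of the BET bromodomain family, was the chromatin gene of the set. Its feature 10523822 read 7.45 and 7.55 in MEL and 5.25 and 5.27 in ES-EP cells, a difference of 2.24 or 4.72-fold, with no overlap. Taking all 10 genes, both MEL values lay above both ES-EP values in 5 and below them in 4, and in 1 the groups overlapped. Over all genes 28.7% were separated upward in this way and 51.5% downward, so separation downward carries little weight here.

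**Figure D2:**
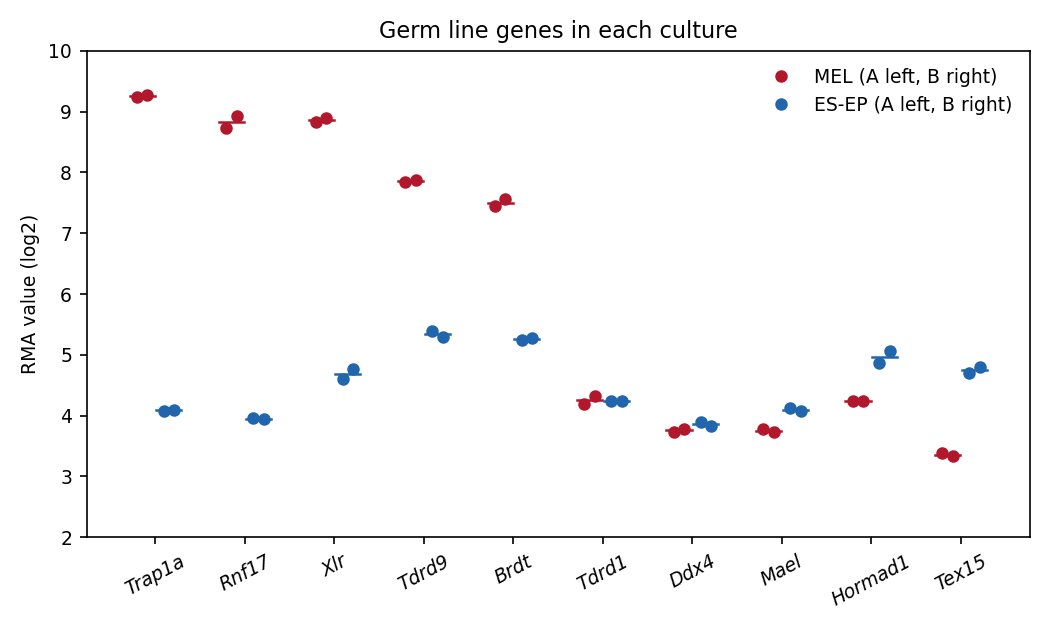
Each point is the log2 RMA value of 1 culture for the brightest feature of each member, with MEL in red and ES-EP in blue and short lines at the group means (n = 2). Trap1a, Rnf17, Xlr, Tdrd9 and Brdt have MEL values of 7.45 or more and ES-EP values of 5.39 or less, while the 5 genes on the right stay at 5.06 or less in both groups.

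The members were set against 214 other genes on 7 lists, of which 178 had a feature of their own. These genes were tested with limma over all 28944 features, and a gene counts as higher or lower at an adjusted p under 0.05 and at least 2-fold. By this rule 7.38% of all genes were higher and 4.93% lower. The counts, 1472 and 982 genes, were the same whatever the p, so the fold criterion alone set these calls. Of the 178 genes 7 were higher (3.93%) and 7 were lower (3.93%). The median difference was -0.16, against -0.14 over all genes.

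Genes of the piRNA pathway and germ granule held most of the higher ones. Of 25 measured genes 4 were higher and 0 lower, 16.0% against 7.38% of all genes, with a median of 0.08. Tdrd7, a Tudor protein of germ granules that is also known from the lens, read 8.06 and 8.18 in MEL and 5.00 and 4.85 in ES-EP cells, 9.13-fold higher (adjusted p = 4.12e-07). Tdrd5, needed for piRNA production in male germ cells, was 5.15-fold higher, at 7.06 ± 0.06 against 4.69 ± 0.02 (SD, n = 2, adjusted p = 9.16e-07). Piwil4, which encodes MIWI2, the partner of TDRD9, read 7.02 and 7.47 in MEL and 4.99 and 4.96 in ES-EP cells, 4.83-fold higher (adjusted p = 1.46e-05). The remaining one, Tex19.2, was 3.04-fold higher and is named because it completes the count.

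The other PIWI genes did not follow Piwil4. Piwil2, which encodes MILI, was at 5.36 ± 0.15 (SD, n = 2) in MEL against 5.72 ± 0.03 in ES-EP cells, and the difference of -0.35 (adjusted p = 0.0175) was under 2-fold. Piwil1 differed by -0.28 (adjusted p = 0.0232), and neither p stayed under 0.05 in every alternative analysis, with highest values of 0.118 and 0.503. The Tudor genes Tdrd6 and Tdrkh differed by -0.14 and -0.16 (adjusted p = 0.296 and 0.128). Mybl1, which drives piRNA precursor transcription in spermatocytes, differed by 0.12 with a 95% interval of -0.32 to 0.56 (adjusted p = 0.605), and its MEL duplicates stood apart at 6.74 and 7.37.

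The meiotic chromosome list held more lower than higher genes. Of 37 measured genes 1 was higher and 5 were lower (2.70% and 13.5%), with a median of -0.20. Rec114, which helps to start meiotic double-strand breaks, was the higher one, with 8.71 and 8.69 in MEL and 5.51 and 5.63 in ES-EP cells, 8.75-fold (adjusted p = 3.07e-07). Its partner Mei4 went the other way and was 3.18-fold lower (adjusted p = 8.48e-06). Stag3, the meiotic cohesin subunit, read 4.56 and 4.51 in MEL and 7.57 and 7.55 in ES-EP cells, 8.12-fold lower in MEL (adjusted p = 2.86e-07). Psmc3ip, a cofactor of meiotic strand exchange, was 4.34-fold lower (adjusted p = 2.56e-06), and Syce2, of the synaptonemal complex, was 3.57-fold lower from a bright 11.1 in ES-EP cells (adjusted p = 3.17e-06). Meiob was 3.14-fold lower, and like Mei4 it is named because it completes the count. Sycp3 and Stra8, which mark entry into meiosis, were dim in both groups, at 3.20 and 3.21 and at 3.62 and 3.95. The relative of Hormad1, Hormad2, differed by -0.20 (adjusted p = 0.0843), and Trip13, the ATPase that removes HORMA proteins from chromosomes, by -0.38 at 10.0 in MEL cells (adjusted p = 0.00766).

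The lists that mark germ cells themselves held no gene past the threshold. Of 23 regulators of germ cell identity 0 were higher and 0 lower, and Dazl, an RNA-binding protein of germ cells, read 3.85 in MEL against 3.96 in ES-EP cells on average (adjusted p = 0.340). Of 32 spermatid and oocyte genes 0 were higher and 0 lower, with a median difference of -0.37. Of 48 X-linked genes from germ line families such as Mage, Rhox and Ssx 20 had a feature of their own, and 0 were higher and 0 lower, with a median of -0.17. Without the fold criterion, limma gave an adjusted p under 0.05 to 2 higher and 8 lower of the 23 regulators. For the 32 spermatid and oocyte genes the counts were 1 and 19, and for the 20 X-linked genes 0 and 5. Over all genes 21.8% were higher and 36.9% lower by this rule. The spermatid and oocyte genes are dim, with a list median of 4.45 for MEL and 5.00 for ES-EP. Among dim features generally the MEL arrays read lower. The lower quartile was 4.46 and 4.38 on MEL arrays A and B, against 4.66 and 4.65 on ES-EP arrays A and B. Whether the lower counts or the median of -0.37 go beyond this shift was not tested.

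**Figure D3:**
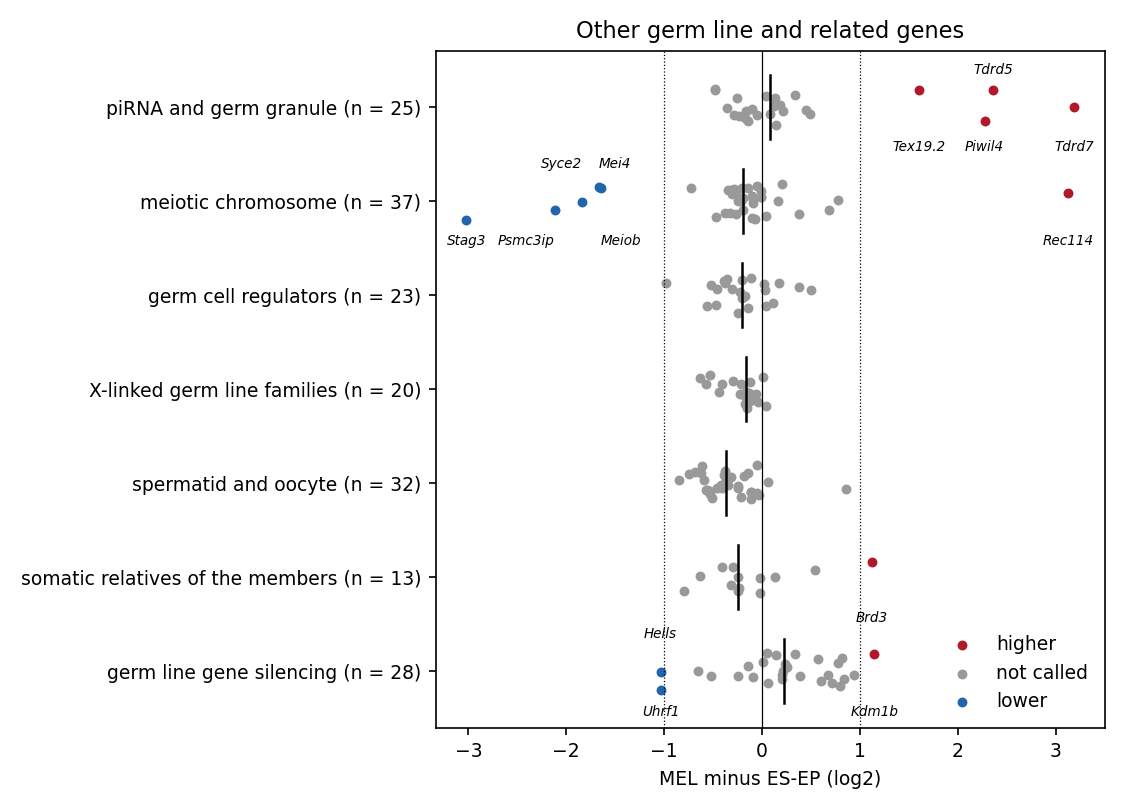
Each point is 1 gene that is no member, placed by its difference of MEL minus ES-EP in log2 units (n = 2 per group), with 1 row per list, black bars at the list medians and dotted lines at 2-fold; the spread within a row is only for legibility. The 4 higher genes of the piRNA list and the 5 lower genes of the meiotic list stand clear of the rest, while 3 lists hold no coloured point.

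Markers of germ cells, of the somatic cells of the testis and of pluripotent cells did not differ by 2-fold. For 13 germ cell markers the mean value was 4.73 and 4.68 on the MEL arrays and 5.01 and 4.98 on the ES-EP arrays, 0 of 13 were higher or lower, and the brightest reached 6.02 in MEL against 6.41 in ES-EP cells. The 8 measured testis markers had means of 5.39 to 5.55, and the 8 pluripotency markers 4.47 to 4.89, again with 0 called in either direction. RMA values do not reach 0, so none of these markers can be called absent. Of 9 erythroid markers 7 were measured, with array means of 9.75 and 9.78 in MEL and 11.3 and 11.3 in ES-EP cells, and 3 of them were lower in MEL. Their group means ran from 4.35 to 12.4 in MEL and from 7.60 to 13.2 in ES-EP cells, so not every one was bright in MEL. The embryonic globin gene Hbb-bh1 was the dimmest in MEL, and Slc4a1, the anion exchanger of red cells, was at 7.04 there against 12.5 in ES-EP cells. These had the largest differences, -3.25 and -5.44, while the median of the erythroid list was -0.81. Gata1 and Epor went the other way, by 0.46 and 0.42 (limma, adjusted p = 0.00251 and 0.00413), under 2-fold. Without the fold criterion 2 of the 7 were higher and 5 lower.

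Genes related to the members by protein family but used throughout the body differed by less than 2-fold with 1 exception. Of 13 such genes 1 was higher and 0 were lower. Brd3, a BET protein like Brdt, was the higher one, with 9.26 ± 0.003 (SD, n = 2) against 8.13 ± 0.14, or 2.18-fold (adjusted p = 6.56e-05). Of 28 genes tied to the silencing of germ line genes, among them the TET enzymes, which work against DNA methylation, 1 was higher and 2 were lower. Kdm1b, a histone demethylase, was 2.22-fold higher (adjusted p = 8.27e-05). Uhrf1, which guides the maintenance DNA methyltransferase, was 2.04-fold lower (adjusted p = 7.80e-05) and Hells, a remodeller needed for DNA methylation, 2.05-fold lower (adjusted p = 4.60e-04), but after quantile normalization they came to -0.87 and -0.90 on the log2 scale, under 2-fold. Without the fold criterion, limma gave an adjusted p under 0.05 to 13 higher and 4 lower of the 28 silencing genes. Over all genes 21.8% were higher and 36.9% lower by this rule. The median difference of the list was 0.23, against -0.14 over all genes. The methyltransferase genes Dnmt1 and Dnmt3b differed by 0.39 and 0.94 (adjusted p = 0.00610 and 1.09e-04), under 2-fold. E2f6 and Mga, repressors that act at E2F sites and E boxes of germ line promoters, differed by 0.21 and 0.24 (adjusted p = 0.0750 and 0.0902). After another scaling, cyclic loess, the adjusted p was 0.0109 and 0.0292, so the side of 0.05 depended on the scaling. Their differences reached at most 0.32 and 0.36 over the alternative analyses, under 2-fold. The part of these genes in the values of the members was not tested.

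The genes beside the members on the chromosomes were examined next, since they took no part in the choice. For each member the 2 nearest protein-coding genes with a feature on each side were taken from the gene order of GRCm38.p6, giving 40 neighbours. Of these 9 were higher in MEL (22.5%, against 7.38% of all genes) and 4 were lower (10.0%, against 4.93%). The bright members had 5 higher and 2 lower among 20 neighbours and the dim members 4 and 2 among 20, much alike at this distance. With only the nearest gene on each side, 6 of 20 were higher. These were Pwwp3b, Radx, 3830403N18Rik and Tgfbr3 beside bright members and Ccdc186 and Golph3l beside dim ones. Purg, next to the dim Tex15, narrowly missed the fold criterion, with a difference of 0.999845 (adjusted p = 2.07e-04). With so few genes, whether the likeness of the counts depends on the distance taken cannot be told. The median difference of the neighbours was 0.01.

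Trap1a and Xlr had higher neighbours beside them. On both sides of Trap1a the next measured gene was higher in MEL, Pwwp3b by 6.03-fold at 5.98 and 6.47 against 3.63 and 3.63 (adjusted p = 1.04e-05), and Radx, a protein of replication forks, by 6.40-fold at 7.28 and 7.68 against 4.90 and 4.70 (adjusted p = 6.21e-06). The gene after Radx, the ubiquitin ligase gene Rnf128, was 4.79-fold lower (adjusted p = 2.90e-06). Beside Xlr the gene 3830403N18Rik read 9.84 and 9.96 in MEL and 3.38 and 3.52 in ES-EP cells, 87.5-fold higher (adjusted p = 7.03e-08), which exceeds the difference of any member. On the other side of Xlr, Zfp36l3 differed by 0.06. Of the 8 neighbours of these X-linked members 3 were higher, while over the whole genome 12.9% of 742 X-linked genes were higher in MEL, against 7.17% of 19166 autosomal genes.

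No neighbour of Rnf17 passed the threshold. Atp12a and Cenpj, next to it on either side, differed by 0.06 and 0.77 (adjusted p = 0.575 and 7.81e-04). Cenpj was thus 1.71-fold higher in MEL and fell short only of the fold criterion. Next to Brdt the receptor gene Tgfbr3 was 2.92-fold higher (adjusted p = 7.12e-06). Near Tdrd9 Ppp1r13b was 5.00-fold higher (adjusted p = 3.09e-06) and Atp5mpl 2.01-fold lower (adjusted p = 5.13e-05), the last at the edge of the threshold. Among the dim members, the genes next to Ddx4, Il31ra and Slc38a9, differed by 0.05 and -0.20 (adjusted p = 0.637 and 0.137). The second gene on either side passed. These were Il6st, the shared receptor of interleukin-6 type cytokines, at 9.14-fold higher (adjusted p = 1.12e-06), and the phosphatase gene Plpp1, at 8.37-fold lower (adjusted p = 2.59e-07). Beside Hormad1, Golph3l and Ensa were 3.40-fold and 2.14-fold higher, beside Tdrd1 Ccdc186 was 2.44-fold higher, and near Tex15 the helicase gene Wrn was 2.23-fold lower (adjusted p = 3.09e-06, 4.08e-05, 1.38e-05 and 6.68e-05). The neighbours of Mael did not pass.

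**Figure D4:**
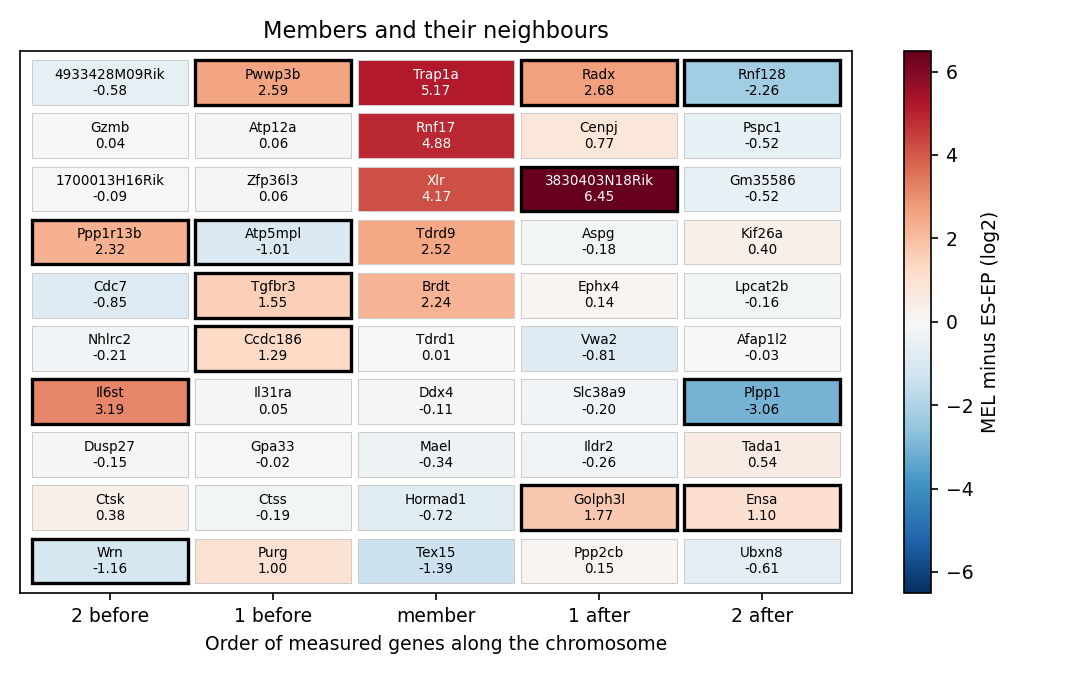
Each row shows a member in the middle and the 2 nearest measured protein-coding genes before and after it in chromosome order, coloured and labelled by MEL minus ES-EP in log2 units (n = 2 per group), with thick frames around neighbours that passed as higher or lower. Trap1a has higher genes on both sides and Xlr on 1 side, while no neighbour of Rnf17 is framed.

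The genes most like Trap1a were found by the distance between their 4 log2 values and those of Trap1a (the root of the summed squares over the 4 arrays). The nearest 5 were AI506816 at a distance of 0.50, the adhesion receptor gene Adgrg7 at 0.56, the interferon-induced gene Ifitm3 at 0.58, the potassium channel gene Kcnma1 at 0.62 and the actin-bundling gene Pls3 at 0.63. A second feature of Kcnma1 differed by -0.54, so its features disagree. With 4 arrays in 2 groups, likeness means only a high value in MEL and a low one in ES-EP cells.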

How the data were processed

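Total RNA of 4 cultures was hybridised to single-colour arrays. The deposited values are on a log2 scale and were made by the authors with GeneSpring GX as RMA values, per the labels. The log2 base was read from the values, and the labels state no version, filter or annotation. RMA draws the arrays' distributions together and leaves a floor for dim features, but the deposited arrays still differ at low signal, with lower quartiles of 4.46 and 4.38 in MEL and 4.66 and 4.65 in ES-EP.

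Of 35557 features 6613 control features were left out. Symbols came from the platform annotation, updated by Entrez identifier through RefSeq (GRCm38.p6; 21698 of 21789 features with 1 symbol found). The brightest of a gene's features stood for it. Features with several symbols (1621) or none (5534) named no gene.

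The comparison of MEL with ES-EP used limma 3.58.1 (R 4.3.3, lmFit, eBayes, 2 residual and 5.15 prior degrees of freedom) with Benjamini-Hochberg adjustment over 28944 features. An exact permutation test of 4 arrays cannot give a two-sided p under 0.333. The procedure was tested on simulated data.

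Members, lists and tests were chosen with earlier results of these data known. Named genes are all members, up to 3 per list and direction by size, every called neighbour, 5 genes by likeness to the leading member, and genes fixed by function, of which 1 is not reported here. Alternatives were 3 scalings, a filter on dim features, the letter as a block, an intensity trend in the prior, the mean of a gene's features, no fold criterion, 1 neighbour per side and each culture left out.

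The duplicates correlated with r = 0.997 for MEL and 0.998 for ES-EP across features, which are not independent replicates. Between MEL duplicates 61 features were at least 2-fold apart and between ES-EP duplicates 4. The number of arrays limits the precision.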

Additional observations from a re-analysis of the deposited data

How the results depend on the processing

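The 5 bright members were at least 2-fold higher in all 9 alternatives that give a value for them, with ranges of 5.15 to 5.31 for Trap1a, 4.78 to 4.98 for Rnf17, 4.08 to 4.29 for Xlr, 2.47 to 2.60 for Tdrd9 and 2.18 to 2.34 for Brdt. Tex15 ran from -1.45 to -1.20, while Tdrd1 (-0.06 to 0.23) and Ddx4 (-0.14 to 0.08) changed sign. With features under the median left out, none of the 5 dim members remained, so 0 members were lower. Without the fold criterion 4339 genes were higher and 7350 lower, 28 and 64 of the listed genes, and 14 and 11 of the neighbours, since small differences are then admitted. With 1 neighbour on each side, 6 of 20 were higher and 1 lower. Over the single cultures left out, the listed genes gave 7 to 8 higher and 5 to 8 lower, the neighbours 9 to 10 and 3 to 4, and all genes 1409 to 1569 and 959 to 1051. Of 38 named genes that are no members 34 kept their side of the threshold in every alternative that could be run. Dnmt3b crossed 2-fold upward after centring (1.01), cyclic loess (1.04) and without ES-EP culture A (1.01). Uhrf1, Hells and Atp5mpl fell under 2-fold after each of the 3 scalings and without MEL culture A, and Atp5mpl also without ES-EP culture A. The median difference over all genes was -0.14 as deposited and moved to -0.02 (quantile normalization), -0.07 (centring) and 0.02 (cyclic loess). The cultures share only a letter across groups, and deviations of same-lettered cultures correlated with 0.11. With the letter as a replicate block the fit gave 1472 genes higher and 982 lower, the same counts as without it. Signal near the floor limits what can be said of the 5 dim members and of the ES-EP values of the others.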
